A study of Homo sapiens with 8 samples.

Results

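Peaks of DNA recovered with α-satellite probes were examined across the centromere of chromosome 9 and the heterochromatin beside it. Members were all listed peaks of chromosome 9 that start from 38 to 81 Mb on build hs1, 542 of 32035 peaks in asynchronous cells and 518 of 33553 in mitotic cells, or 1060 of 65588 in all. The window was cut by position into 4 blocks: a short-arm flank (start below 44.8 Mb), the main array (44.8 to 47.7 Mb), the satellite 3 block (47.7 to 76.5 Mb) and a distal edge (from 76.5 Mb). Peaks elsewhere on chromosome 9 were few, 6 in asynchronous and 43 in mitotic cells. The members nearest the lower limit start at 40539529 and 40539727, and the nearest peaks outside it at 16314728 and 37955123. At the upper limit the last members start at 79947215 and 79941054, and the next peaks at 104498253 and 82188052.

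The experiment was ChIRP-seq, in which biotinylated probes antisense to an RNA are hybridised to sonicated chromatin and the DNA that comes along is sequenced. Hybridisation of these probes to the repeat's own DNA was not separated from hybridisation to its RNA here. It used RPE1, an immortalised human retinal pigment epithelial line of genotype WT, either as an asynchronous culture (labelled Async) or as mitotic cells (labelled Meta). For each condition an Odd and an Even library against α-satellite had been merged by the authors, so a condition is represented by 1 peak list. All lists come from a single cell line, no replicate spread exists, and no difference between conditions was tested. Exact 95% intervals are given for counts and shares. They cover counting error only and treat neighbouring peaks as independent. Sequencing depth is unknown, and input and Scr libraries were not analysed here.

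α-Satellite is the tandem repeat on which human centromeres and their kinetochores are built. On each chromosome its monomers are arranged in long homogeneous arrays of higher-order repeats, flanked by more diverged copies. Beside the array of chromosome 9, in band 9q12, lies one of the largest blocks of satellite 3 in the human genome, a different satellite made of a short simple repeat. This block varies in length between people, and its transcription in heat-shocked cells forms nuclear stress bodies. The satellite names used here are those of the blocks as defined by position, since no repeat annotation or sequence of build hs1 was used, and no peak was assigned to a repeat class.

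Nearly all covered length lay in the main array, in both conditions. The array held 487 asynchronous and 472 mitotic peaks, which covered 2340 and 2379 kb. The short-arm flank held 40 and 33 peaks over 90.0 and 101 kb, and the distal edge 15 and 12 peaks over 66.0 and 81.8 kb. The satellite 3 block, the longest of the 4 at 28.8 Mb, held 0 asynchronous peaks and 1 mitotic peak of 220 bp. In the 3 blocks with peaks in both lists the mitotic list had fewer peaks and more covered length. For peak number this direction turned in both flanks when only peaks of 6-fold enrichment or more, with −log10 q not below 5, were counted: these were 18 asynchronous and 24 mitotic on the short-arm side and 7 and 11 at the distal edge. Mitotic over asynchronous peak number was 0.969 (0.852 to 1.10) in the main array and 0.825 (0.504 to 1.34) in the short-arm flank. At the distal edge the interval of this ratio ran from 0.342 to 1.83, and all 3 intervals include 1. Covered length had ratios of 1.02, 1.12 and 1.24. Each flank's ratio depended on single sites. Without the peaks from 44705500 to 44776294 that of the short-arm flank was 0.881. Without the site from 42390127 it was 1.46, and without that from 42722905 it was 1.28. Leaving out the site from 40539529 or that from 41477255 gave 1.10 and 1.13. At the distal edge the ratio was 1.05 without the site from 77257303, which held 54.1 of the 66.0 asynchronous kb. It was 1.25 and 1.26 without either other site.

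**Figure D1:**
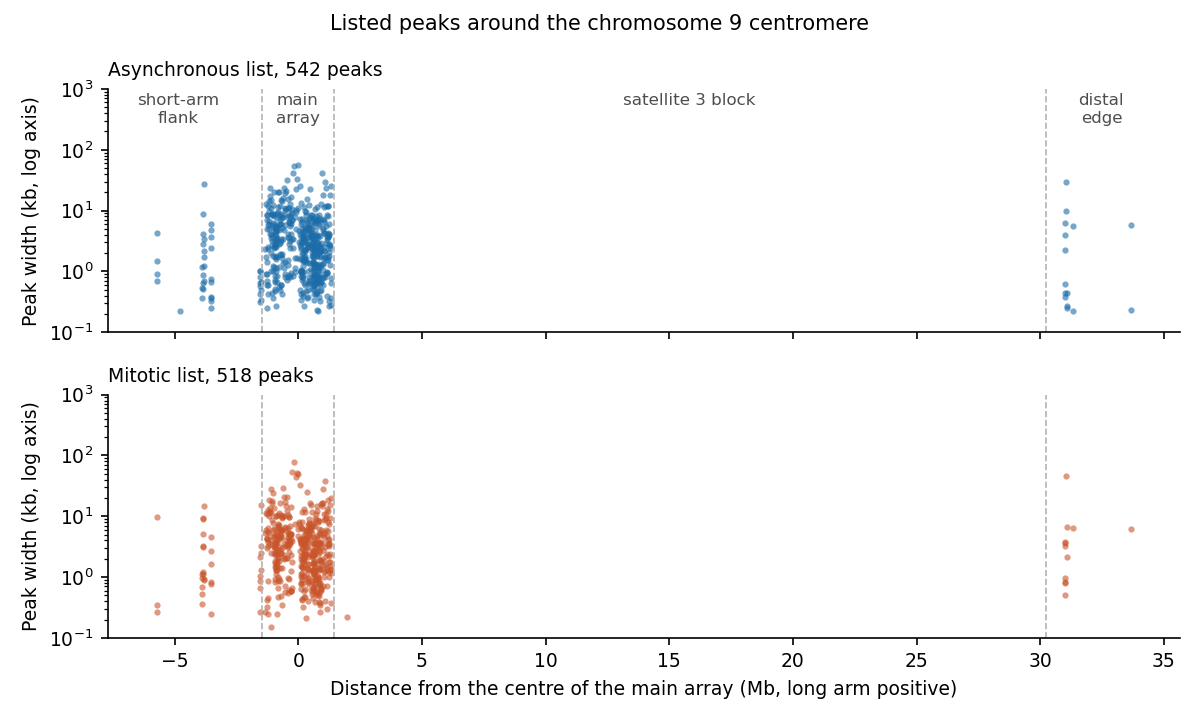
Each point is 1 listed peak, placed by its distance from the centre of the main array in Mb and by its width in kb on a log axis, with the asynchronous list above and the mitotic list below. Dashed lines mark the limits of the 4 blocks. The 28.8 Mb of the satellite 3 block are empty but for 1 mitotic peak of 220 bp.

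The main array was almost continuously covered. Peaks ran from 44938730 to 47606780, a span of 2.67 Mb, of which 87.7% was covered in asynchronous and 89.2% in mitotic cells. Both ends of the array fell close to the same place in each list. The first peak started at 44938748 and 44938730, and the last peak of at least 2000 bp ended at 47590348 and 47590981. Beyond that point there were only 4 and 3 short peaks, with fold enrichments of 4.35 to 4.98 and 5.26 to 7.17. Fold enrichment is the authors' value per peak, its pileup over the local background. Depth and scaling of the lists are unknown, so values of both lists stand side by side and no change between them is read from it.

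Peaks of the array were longer, and higher in fold enrichment, than the median peak of their lists. In asynchronous cells their median width was 2723 bp, against 868 bp over all listed peaks. For mitotic cells it was 3048 bp, against 796 bp. The median fold enrichment was 9.43 (9.29 to 9.58) against 7.73, and 10.3 (10.1 to 10.5) against 7.98. A fold enrichment of at least 6 with a −log10 q of at least 5 was reached by 93.4% of its asynchronous peaks (90.9 to 95.5%), beside 73.7% of all asynchronous peaks. In mitotic cells 96.0% (93.8 to 97.6%) reached it, beside 77.6%. Few peaks held much of the covered length: 55 and 58 peaks of 10 kb or more made up 43.7% and 46.8% of the covered length, while 113 and 90 peaks under 1 kb made up 3.14% and 2.41%. Median fold enrichment was 10.8 and 11.4 in the first class and 7.33 and 8.46 in the last, so wide peaks were also the stronger ones. Across peaks the rank correlation of width with fold enrichment was 0.458 over 487 peaks and 0.417 over 472. Peaks of a list share its libraries, and this is a description.

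Among the largest regions of the 23 chromosomes with peaks, found by joining peaks at most 100 kb apart, this array ranked the third by median width among asynchronous peaks and the second among mitotic peaks. The median over the 23 regions was 1023 and 1044 bp. Chromosome 3 ranked first, with 5643 and 5791 bp. Chromosome 21, with 22 and 21 peaks, had 2921.5 and 3045 bp. Its mitotic value was nearly equal to the 3047.5 bp of chromosome 9. Chromosomes 1 and 16, whose long arms also begin with large satellite blocks, had much shorter peaks in their largest regions, of 941 and 740 bp and of 1020 and 919 bp. The largest region of chromosome 16 was covered over 43.2% and 43.4% only. By median fold enrichment the array of chromosome 9 ranked only the sixth in asynchronous and the eighth in mitotic cells, at 9.43 and 10.3 against medians of 8.44 and 8.55 over the 23 regions. These ranks were not tested.

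A core in the middle of the array stood out within it. From 46 to 46.3 Mb, over 300 kb, 21 asynchronous and 10 mitotic peaks started, and 96.8% and 99.4% of the sequence was covered. The median width of a peak was 7.85 kb in asynchronous and 26.1 kb in mitotic cells, compared with 2.66 and 2.98 kb over the other 466 and 462 peaks of the array. Median fold enrichment was 13.7 and 13.99 against 9.38 and 10.2 elsewhere in the array. Of all asynchronous peaks of the genome 1.501% had a fold enrichment at or above that core median, and of all mitotic peaks 2.02%. These limits were set after the profile had been seen.

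The widest peaks of chromosome 9 started in this core. In asynchronous cells they were 57.1 kb (46252155 to 46309270), 55.1 kb (46090301 to 46145371) and 42.2 kb (46047954 to 46090190), with fold enrichments of 14.2, 14.1 and 14.5. In mitotic cells they were 77.0 kb (46058854 to 46135848), 53.4 kb (46005302 to 46058721) and 52.2 kb (46188628 to 46240794), with 14.6, 13.2 and 15.0. The widest of each list was also the fourth widest of its whole list. Of the 14 asynchronous peaks of at least 40 kb in the genome 4 were in the array, 3 of them in the core. Of the 19 mitotic ones 5 were in the array, all in the core. The strongest asynchronous peaks of the array also lay there, at 46172129 (fold enrichment 15.0), 46182779 (14.8) and 46207455 (14.6). In mitotic cells the peaks from 46188628 and 46245753 (14.9) were in the core, but the strongest was a peak of 724 bp at 47267700, also with 15.0, close to the long-arm end of the array.

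**Figure D2:**
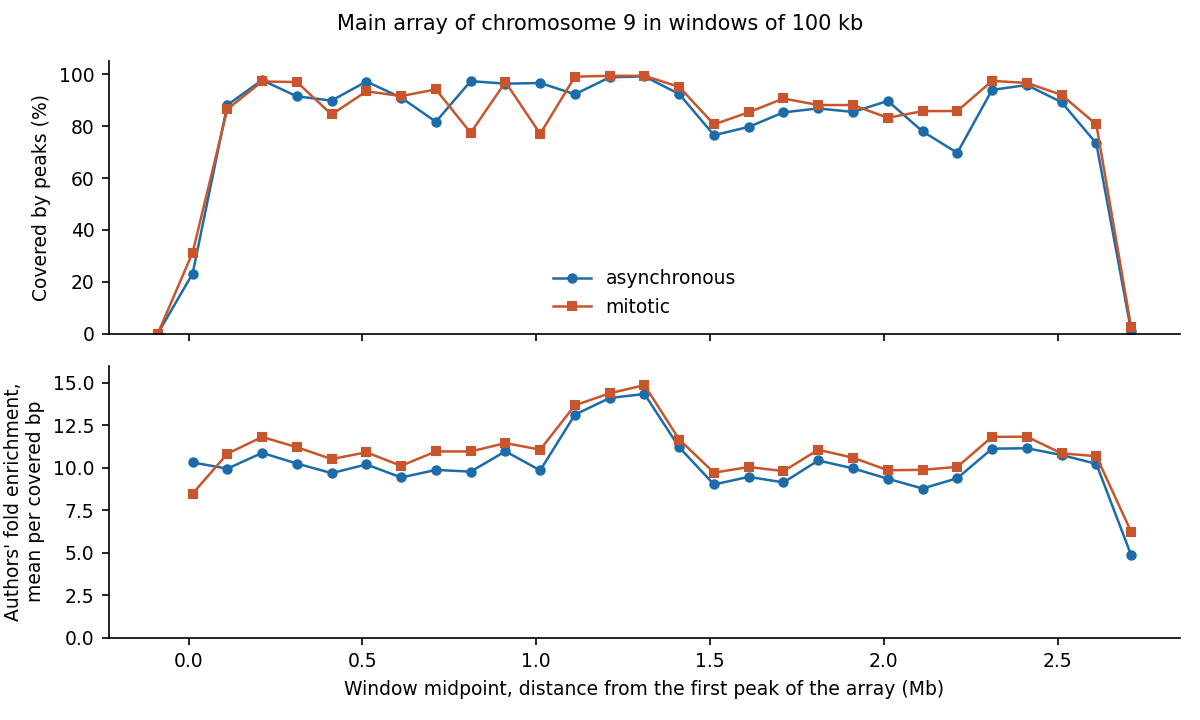
Windows of 100 kb across the main array are plotted by the distance of their midpoint from the first peak in Mb, with the covered share in percent above and the mean of the authors' fold enrichment per covered base pair below. Circles are the asynchronous and squares the mitotic list. Fold enrichment rises to 14.3 and 14.9 in the core and lies between 8.78 and 11.8 in the 23 inner windows outside it.

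The profile along the inner part of the array was alike in both lists. In the 26 inner windows of 100 kb, fold enrichment per covered base pair had a Pearson correlation of 0.983 and a Spearman correlation of 0.929 between lists. Without the 3 core windows these were 0.929 and 0.897 over 23 windows. Over all 28 covered windows, with both edges, they were 0.946 and 0.865. The edge window from 44.9 Mb had a fold enrichment of 10.3 in asynchronous and 8.48 in mitotic cells, and that from 47.6 Mb had 4.87 and 6.24. The windows share the reference sequence in both lists, so this describes a common profile only. The highest values belonged to the window from 46.2 Mb, with 14.3 and 14.9, and to that from 46.1 Mb, with 14.1 and 14.4. Outside the core the 23 inner windows ranged from 8.78 to 11.2 in asynchronous and from 9.71 to 11.8 in mitotic cells. The lowest core window had 13.1 in asynchronous and 13.7 in mitotic cells. As the core was chosen from this profile, its place above the other windows follows from the choice.

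The covered share followed the core less closely. In asynchronous cells the 3 best covered windows began at 46.2 Mb (99.3%), 46.1 Mb (98.9%) and 45.1 Mb (97.8%). For mitotic cells they were the 3 core windows, from 46.2 Mb (99.5%), 46.1 Mb (99.5%) and 46 Mb (99.2%). The 3 least covered windows were at the edges in both: from 44.8 Mb (0% in both lists), 47.6 Mb (1.07% and 2.55%) and 44.9 Mb (23.1% and 31.2%). These windows lie wholly or partly outside the array's peaks (44938730 to 47606780), so their shares cannot be read as shares of the array. That from 44.9 Mb lies partly within it and holds the longest asynchronous gap of the array, 20.8 kb from 44941074. A mitotic gap of 16.8 kb from 44971046 lies there too, so long gaps occurred at this end in both lists. Of the inner windows the least covered began at 47.1 Mb (69.7%) in asynchronous and at 45.9 Mb (77.1%) in mitotic cells. Between lists the covered share of the inner windows had a Pearson correlation of 0.473 and a Spearman correlation of 0.528. It was higher in the mitotic list in 19 windows and lower in 7, with a median difference of 1.98 percentage points. The differences ranged from -19.97 points, in the window from 45.7 Mb (97.4% in asynchronous and 77.5% in mitotic cells), to 16.2 points, in that from 47.1 Mb (69.7% and 85.9%).

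Most of the covered length of the array was common to both conditions, although single peaks often differed in extent. The lists shared 2142 kb, a Jaccard index of 83.1%, with 197 kb in the asynchronous and 237 kb in the mitotic list alone. With 87.7% and 89.2% of the array covered, the index had to be high by coverage alone. Coverage also favours overlaps of 1 bp, so neither measure was read as a likeness between conditions. Per inner window the index ran from 68.2% to 99.4%, the latter in the window from 46.2 Mb. In the edge windows from 44.9 and 47.6 Mb it was 27.3% and 22.5%. At an overlap of 1 bp, 465 of the 487 asynchronous peaks of the array met a mitotic peak (95.5%, 93.2 to 97.1%), where 81.9% of all asynchronous peaks did. In the other direction 434 of 472 did (91.9%, 89.1 to 94.2%), where 79.2% of all mitotic peaks did. With a reciprocal overlap of 50% the order was turned: 42.5% (38.1 to 47.0%) of its asynchronous peaks and 43.9% (39.3 to 48.5%) of its mitotic peaks passed, below 53.8% and 51.3% of all peaks. Of the asynchronous starts 42 (8.62%) lay within 25 bp of a mitotic one and 114 (23.4%) within 100 bp. For ends these were 47 (9.65%) and 115 (23.6%). The share over all listed peaks was not computed.

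Many gaps between neighbouring peaks were short. In the asynchronous list 156 of 486 gaps between neighbouring peaks of the array (32.1%) were at most 150 bp, and in the mitotic list 150 of 471 (31.8%). The median share over the 23 largest regions was 18.4% and 15.5%. Chromosomes 3, 15 and 21 had higher shares than chromosome 9 in both lists. The shortest gap was 101 bp in both. Joining peaks over gaps of at most 1000 bp left 60 asynchronous and 43 mitotic pieces, the longest of 351 and 444 kb, which together spanned 91.2% and 92.9% of the array.

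Longer gaps coincided with running numbers that the deposited lists do not hold. Peak names carry running numbers in genome order. A number missing between neighbouring peaks was read as a call that is not listed. This reading assumes that MACS2 named the calls in genome order before some were left out, and the rule for leaving them out is not given. The array spans 615 asynchronous numbers, of which 79.2% are listed, and 585 mitotic numbers, of which 80.7% are listed. Over the 23 largest regions the median listed share was 70.4% and 68.9%. Where neighbouring peaks had consecutive numbers the gap was never above 803 bp in the asynchronous list (398 gaps) or 756 bp in the mitotic list (389 gaps). All 59 and 42 gaps over 1000 bp had at least 1 number missing between their peaks. Gaps between consecutive numbers made up 2.82% and 2.83% of the array, while gaps with a missing number made up 9.49% and 7.99%. The position and width of an unlisted call within its gap are not known. Over the 23 largest regions the median share in gaps between consecutive numbers was 8.15% and 7.98%. On chromosome 9 this share ranked 21st in both lists.

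**Figure D3:**
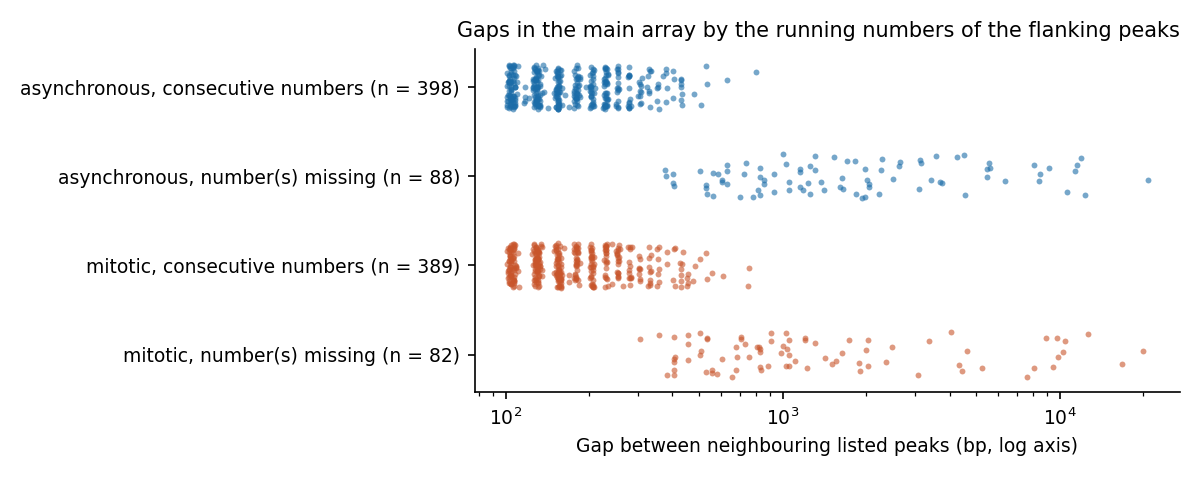
Each point is a gap between neighbouring listed peaks of the main array, by its length in bp on a log axis. Rows separate gaps whose flanking peaks have consecutive running numbers from gaps with at least 1 number missing, in each list. Consecutive numbers go with gaps of up to 803 and 756 bp, and all longer gaps have a number missing.

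Stretches of at least 1000 bp covered in 1 list alone numbered 31 in the asynchronous list, 127 kb in sum, and 47 in the mitotic list, 156 kb in sum. Since every gap over 1000 bp has a number missing, each of them necessarily lay in a gap of the other list with an unlisted call, and this is no separate result. Over the largest regions of the 23 chromosomes 99.8% of asynchronous and 100% of mitotic stretches did so. Whether an unlisted call covered the stretch is not known.

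The longest gaps of 1 list were mostly covered in the other, as was the array as a whole (87.7% in asynchronous and 89.2% in mitotic cells). Several of these gaps were covered less than the whole array. In the mitotic list the stretch from 45750597 to 45770551 (19955 bp, 1 number missing) was uncovered, and the asynchronous list covered 99.5% of it. In the asynchronous list the stretch from 45639925 to 45651252 (11.3 kb, 1 number missing) was uncovered, and the mitotic list covered all of it. The longest asynchronous gap, from 44941074 to 44961829 (20.8 kb, 5 numbers missing), was covered over 59.9% in the mitotic list. The other long asynchronous gaps started at 46462223 (12.3 kb), 47003896 (11957 bp) and 44965623 (11.6 kb), with 82.7%, 96.7% and 46.9% covered in the mitotic list. The other long mitotic gaps started at 44971046 (16.8 kb), 44996622 (12.6 kb), 45952097 (10.4 kb) and 46993798 (10.2 kb), with 63.4%, 70.3%, 97.5% and 92.0% covered in the asynchronous list. Only 91.7 kb of the array, 3.44%, was uncovered in both lists. The 5 longest such stretches, of 8082, 6149, 4056, 3683 and 3279 bp, all lay near an end of the array, the first from 44944495 and the third from 47598972.

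Outside the array, peaks fell into 9 sites when joined over gaps of at most 100 kb. Of these 7 held a peak of at least 2000 bp or at least 5 peaks, and each of the 7 was present in both lists. The remaining sites were single short peaks in 1 list: 219 bp at 41477255 in asynchronous cells, with a fold enrichment of 3.75, and 220 bp at 48241679 in mitotic cells. At 5 sites the mitotic list covered more and at 2 it covered less. In sum they covered 156 kb in asynchronous and 183 kb in mitotic cells, a ratio of 1.17.

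The short-arm flank held 4 of these sites. The farthest, 4.39 Mb from the array (40539529 to 40553319), was covered over 7.37 kb in asynchronous and 10.5 kb in mitotic cells, where a single peak of 9868 bp (fold enrichment 9.58) spanned most of it. The largest, 2.46 Mb from the array (42390127 to 42477023), had 15 peaks in each list and 56.6 and 52.5 kb covered. It held the widest asynchronous peak of the flank, 27.7 kb from 42430577 with a fold enrichment of 9.45, and its strongest, 872 bp from 42414403 with 12.9. Next to these were the peaks from 42411472 (2.80 kb, 11.8) and 42421502 (8.84 kb, 10.6). In the mitotic list the sequence of the 27.7 kb peak was divided, with a peak of 14.7 kb from 42445729 and an uncovered stretch of 5.93 kb before it, where 1 number is missing.

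The other 2 short-arm sites differed between lists in opposite directions. The site 2.18 Mb from the array (42722905 to 42757847) had 19.5 kb covered in asynchronous and 10.8 kb in mitotic cells, and a highest fold enrichment of 8.62 and 12.2. Its widest asynchronous peak, of 5916 bp, started at 42723455, and its strongest mitotic peak, of 1669 bp, at 42722905. The site next to the array, 162 kb away (44705500 to 44776294), had the largest ratio of covered length between lists among the 7. It had 6.28 kb covered in asynchronous and 27.3 kb in mitotic cells, a ratio of 4.35. Only 3.69% of the combined length was common to both.

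At this site no asynchronous peak was wider than 1000 bp or had a fold enrichment above 7.03. There lay the widest and strongest mitotic peak of the flank, 15.4 kb from 44742354 with a fold enrichment of 12.6, and another of 3218 bp from 44773077 with 12.1. The asynchronous list has no peak in those 15.4 kb, but 8 of its running numbers are missing in the gap. Over the site 10 of 51 asynchronous numbers and 9 of 30 mitotic numbers are listed. If missing numbers are calls, the site held many asynchronous calls that are not listed, and what these calls covered is not known.

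**Figure D4:**
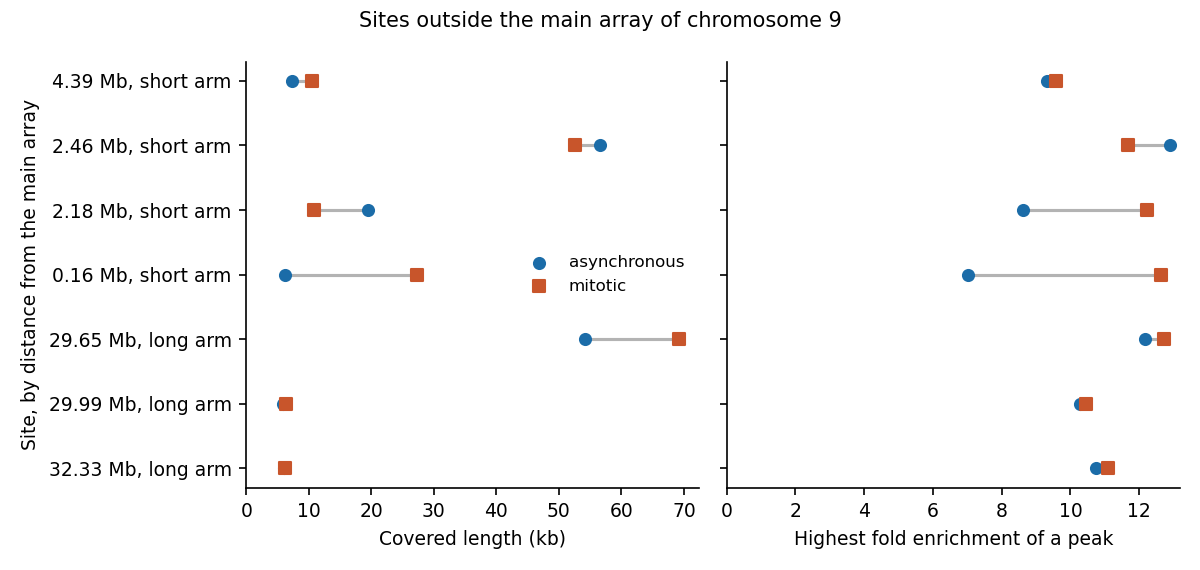
The 7 sites outside the main array with a peak of at least 2000 bp or at least 5 peaks are ordered by position and labelled by distance from the array in Mb. Circles are the asynchronous and squares the mitotic list, for covered length in kb on the left and the highest fold enrichment of a peak on the right. In covered length the site at 0.16 Mb has the largest ratio between lists, at 6.28 and 27.3 kb.

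The distal edge, beyond the satellite 3 block, held 3 sites. The largest, 29.7 Mb from the array (77257303 to 77348070), was covered over 54.1 kb in asynchronous and 69.3 kb in mitotic cells. Its central part was a peak of 46.6 kb in mitotic cells (77289225 to 77335872), with a fold enrichment of 12.7, and the fourteenth widest of the mitotic list. In asynchronous cells the same part was divided into peaks of 6.15, 29.4 and 9.92 kb, with 8.71, 12.2 and 9.43. A neighbouring peak reached 11.2 in asynchronous (4022 bp from 77278979) and 12.6 in mitotic cells (3820 bp from 77279105), and a mitotic peak of 6694 bp lay at 77339129 with 7.69. The median fold enrichment of the site's peaks was 5.88 and 7.40, below the array's medians of 9.43 and 10.3.

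The other distal sites were isolated and nearly the same in both conditions. That from 77598776 to 77605304 was covered over 5.89 and 6.35 kb, with a highest fold enrichment of 10.3 and 10.4 and a Jaccard index of 87.5%. That from 79941054 to 79947444, 32.3 Mb from the array, was covered over 6001 and 6196 bp, with 10.7 and 11.1 and an index of 90.8%. The asynchronous list has 2 peaks with consecutive numbers at each of these sites. The mitotic list has 1 peak at each, so that no number could be missing within it. In the first distal site 11 of 32 asynchronous and 10 of 22 mitotic numbers are listed, and the index was 69.0%. Over the whole distal edge 73.3% (44.9 to 92.2%) of asynchronous peaks met a mitotic peak, and over the short-arm flank 20 of 40 did (33.8 to 66.2%), where 81.9% of all asynchronous peaks did.

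At these sites 9 stretches of at least 1000 bp, 24.7 kb in sum, were covered in the asynchronous list alone and 13, 45.2 kb in sum, in the mitotic list alone. The other list lacked a running number in each of these gaps, but few numbers of the flanks are listed at all. The listed shares were 25.5% and 15.1% on the short-arm side and 23.8% and 9.09% at the distal edge. These shares also count numbers that fall between the sites. Over the genome the asynchronous list holds 32035 peaks with numbers up to 75623. The mitotic list holds 33553 with numbers up to 150026.

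The satellite 3 block was nearly devoid of listed peaks, and peak calls of any kind, counted by running numbers on the same assumption, were also sparse there. Between the last peak of the array and the first of the distal edge, over 29.7 Mb, the asynchronous list skips 94 numbers and the mitotic list 241, with 1 listed. That amounts to 3.17 and 8.16 calls per Mb, listed or not, against 230 and 219 per Mb in the main array. The stretch also contains the first part of the distal edge, and where in it the calls lie is not known. In most of the short arm, from the first listed peak of the chromosome to the first flank site, there were 5.09 asynchronous and 32.8 mitotic calls per Mb. On the long arm beyond the distal edge there were 6.37 and 34.7. These stretches end at the outermost listed peaks and so differ between lists: 24.7 and 40.5 Mb on the short arm, and 62.6 and 70.2 Mb on the long arm.

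Calls per Mb in the block were thus lower than on both arms of the same chromosome, in each list. Against the long arm the ratio was 0.497 (0.393 to 0.624) in asynchronous and 0.235 (0.205 to 0.268) in mitotic cells. Against the short arm it was 0.622 (0.471 to 0.819) and 0.249 (0.216 to 0.286). The ratios rest on different arm stretches in each list, and no difference between conditions is read from them. Few calls on the arms are listed either, 0.794% and 0.904% of those on the short arm, so that this contrast concerns calls and not listed peaks.

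**Figure D5:**
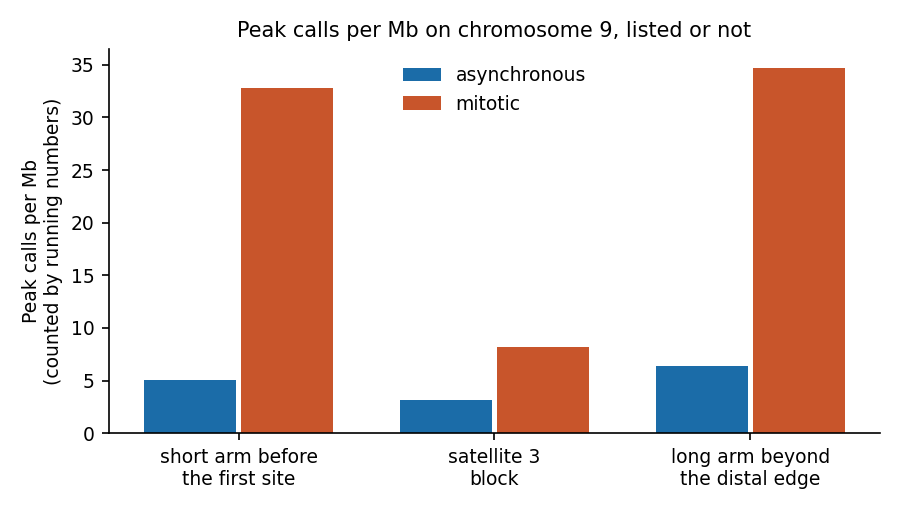
Bars give peak calls per Mb counted by running numbers, whether listed or not, in 3 stretches of chromosome 9 and both lists. The satellite 3 block has 3.17 and 8.16 calls per Mb, below 5.09 and 32.8 on the short arm and 6.37 and 34.7 on the long arm.

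Sequence that follows the largest regions of chromosomes 1 and 16 did not show this sparseness in mitotic cells. There the stretch of about 10 Mb after the region had 60.3 calls per Mb on chromosome 1 and 49.5 on chromosome 16, and the rest of those long arms 43.0 and 39.8. In the asynchronous list the stretch on chromosome 1, which ran to 18.9 Mb for lack of a nearer listed peak, had 12.4 calls per Mb and the rest of its long arm 5.91. The asynchronous stretch of chromosome 16 ran to 48.2 Mb and was not used. In these 3 values calls after the region were denser than on the rest of the arm, and on chromosome 9 they were fewer. The lengths of the satellite blocks on chromosomes 1 and 16 were not used, and these values were not tested against each other. The empty stretch from 48241899 to 77257302, of 29.0 Mb, was the second longest among the chromosomes' longest stretches without a listed peak of either list, after 29.7 Mb on chromosome 13 (17576798 to 47264703). In the asynchronous list alone chromosome 9 had a longer empty stretch, of 32.1 Mb on its long arm (108458940 to 140525226), and ranked the eleventh.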

How the data were processed

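Per the submitters' processing notes, reads were handled with fastp, Bowtie2 and MACS2 on build hs1. Not given in the sources used here: versions, settings, the control for calling, and where reads that map to many repeat copies were placed. The authors deposited 1 headerless peak list per condition from merged Odd and Even libraries. What each column holds was taken from its range and from the layout that MACS2 writes: a deposited pileup signal of unstated scaling (not used), a deposited −log10 q (used as a limit), and fold enrichment, the authors' ratio of pileup to local background. The −log10 p columns, 2 over both lists, were not used. The last 3 deposited columns are scores of unstated meaning and were not used. Peak length was deposited in bp and equals end minus start plus 1 in every row, so positions count from 1.

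Covered length, overlap (1 bp or reciprocal 50%), Jaccard index, sites and missing running numbers were computed in Python 3.11.15 with numpy 2.4.6, pandas 2.3.3 and scipy 1.17.1; matplotlib 3.10.9 drew the figures. The code returned 10 of 10 planted answers on simulated data. Shares carry Clopper-Pearson intervals, ratios of counts exact conditional binomial intervals, medians order-statistic intervals. Named sites are those outside the array with a peak of at least 2000 bp or at least 5 peaks, the 3 widest and 3 strongest peaks per block and list, the 5 longest gaps per list and the 3 windows of 100 kb with most and least coverage. The core, the running-number comparisons, the stretch minimum, the width classes and the inner windows were set after values had been seen. Members, limits and rules were chosen with earlier results of these data known. The gene table at hand is of another assembly, so no gene is named and no sequence is shown.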

Additional observations from a re-analysis of the deposited data

How the results depend on the processing

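Of 90 values under another setting, 69 stayed within the limits set for them (1.5 times for counts, lengths and ratios, the counting interval for shares), 20 moved and 1 turned. Part of the 69 could hardly change. Assignment by midpoint left every value as it was, and the asynchronous satellite 3 block, with 0 peaks, stayed at 0 under any limit. A turn was counted only for ratios of covered length. Peak numbers whose direction turned in the flanks are therefore counted as moved or unchanged. The ratio of covered length in the short-arm flank became 0.881 without the site from 44705500, and this alternative was chosen after seeing the data. A reciprocal overlap of 50% lowered the share of array peaks met in the other list to 42.5% (asynchronous) and 43.9% (mitotic). With a −log10 q of at least 5 alone the distal edge had 8 asynchronous and 12 mitotic peaks, which turned the direction of peak number there, and the short-arm flank 31 and 30. The others that moved concern peak counts in small blocks under limits on fold enrichment or q, the number of short stretches covered in 1 list alone, the median fold weighted by peak length, the listed share per 1 Mb window, and the distance between peaks. The most frequent distance between starts in the array, 4426 and 2427 bp, held 15 of 526 and 14 of 493 distances up to 5000 bp, and from midpoints it was 1788 and 4137 bp, so no repeat distance was read from it. Windows of 1 Mb could not be run in the satellite 3 block, which lacks listed peaks. No paired analysis was possible because each condition has 1 list.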
